A study of Sus scrofa domesticus with 16 samples.

Results

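The probe sets described here carry the symbols of 10 genes of inhibin, activin and TGF-beta signalling. They are the hormone subunits INHA, INHBA and INHBB, the activin-binding protein FST, the ligands TGFB1, TGFB2 and TGFB3, and the receptors TGFBR3, ACVR1 and ACVR2A. They were chosen by gene symbol in the platform annotation, with no cut on their values but with earlier results of these data known. They number 19 of the 23999 probe sets that are not controls. Of the 19, 10 probe sets for 8 genes passed the filter on dim signal (a mean log2 signal of at least 6.15) and were tested, and 9 did not pass it. Neither probe set of INHBB nor of ACVR2A passed. Each of 16 domestic pigs gave RNA from its adrenal gland, of which the labels name no part, for its own Affymetrix porcine array. In the first group, 8 animals labelled high stress came from a mixing treatment in which the unfamiliar pigs put together were of high aggressiveness. In the other, 8 animals labelled low stress came from a mixing treatment of low aggressiveness. The submitters state that the groups were picked so that they differed in aggression and in plasma cortisol, so every animal was mixed and no unmixed animals were among the arrays used here. Breed and age of the animals are not given in the sources used here.

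Activins are dimers of beta subunits, and inhibins pair the alpha subunit encoded by INHA with one of the same beta subunits. Both belong to the TGF-beta family, whose ligands join a type I and a type II receptor at the cell surface and signal through SMAD proteins. In the adrenal gland, inhibin alpha is made by cells of the cortex, and mice without Inha develop tumours of the adrenal cortex after removal of the gonads. In cultured bovine adrenocortical cells TGF-beta holds back steroid production.

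The arrays carried bright markers of the labelled tissue. The cortex genes STAR, CYP11A1 and HSD3B1 averaged 14.85, 14.41 and 14.55 on the log2 scale, and the chromaffin cell genes CHGB and PNMT 14.30 and 13.60. Other listed markers were dimmer. Of 9 cortex markers 8 were found on the array and 8 passed the filter, down to MC2R at 8.47. Of 10 chromaffin cell markers 7 were found and 6 passed, and NPY, at 4.39, did not. Median signals ranged over the arrays from 115.8 to 146.8. A technical split into 2 sets of 8 arrays, which no label records, was known from earlier results on these data. It shows in dap, a bacterial spike-in control, whose mean signal was 3588 in the high-spike set and 605 in the low-spike set. Both sets contained 4 animals of each stress group. Stress comparisons within the sets are also given for some members. No member passed after adjustment for a difference of the stress effect between the sets. The number of arrays limits the precision. In whole tissue, fewer cells of a type and less RNA per cell cannot be told apart.

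No member probe set passed the test of high against low stress at an adjusted p under 0.05. That was 0 of the 10 tested, by limma with adjustment over all 14399 probe sets, of which 0% passed. At an unadjusted p under 0.05 the count was also 0 of 10, beside 3.19% of all probe sets. With the spike-in set as a block, 0 of 10 passed at the adjusted and 0 of 10 at the unadjusted threshold, beside 0.00694% and 6.38% of all probe sets. The log2 fold changes of high over low stress ran from -0.33 for FST to 0.12 for INHBA. Of the 10 values, 3 were above 0 and 7 below, where 41.6% of all probe sets were above 0 and 58.4% below. Their 95% confidence intervals reached down to a ratio of 0.606, for FST, and up to one of 1.4, for TGFB2, so each member's interval still holds changes in both directions. The stress groups overlapped for all 10, as they did for all but 0.0208% of the probe sets tested.

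INHA encodes the alpha subunit that is part of every inhibin. Intervals given as CI are 95% confidence intervals of the log2 fold change of high over low stress from limma, unless another difference is named. Its probe set Ssc.5566.1.S1_at had a log2 signal of 8.71, 9.31 and 9.78 (lowest, median and highest animal) in high stress glands, against 8.82, 9.60 and 9.73 in low stress glands. The high stress range enclosed the low stress range, with 1 high stress animal below and 1 above it. High stress glands had a mean of 9.33 ± 0.34 and low stress glands one of 9.43 ± 0.37 (SD, n = 8 each). The log2 fold change was -0.09 (95% CI -0.45 to 0.27; adjusted p = 0.999), which is a ratio of 0.938 with an interval of 0.73 to 1.2. The lowest values in both stress groups belonged to animals of the high-spike set.

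INHBA encodes the beta A subunit, which forms activin A as a dimer and inhibin A with the alpha subunit. Its probe set Ssc.112.1.S1_at had a log2 signal of 8.43, 8.65 and 9.08 in high stress glands, against 8.34, 8.56 and 8.70 in low stress glands. In this probe set 5 high stress animals exceeded the low stress mean, 3 of them exceeding every low stress animal. The means were 8.68 ± 0.21 in high stress and 8.56 ± 0.10 in low stress, with a log2 fold change of 0.12 (95% CI -0.09 to 0.33; adjusted p = 0.999).

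The 3 high values of INHBA all came from the low-spike set. In the high-spike set the high stress animals had log2 signals of 8.65, 8.53, 8.43 and 8.50 and the low stress animals 8.56, 8.59, 8.57 and 8.70. In the low-spike set they were 8.65, 8.71, 8.89 and 9.08 in high stress and 8.51, 8.63, 8.34 and 8.55 in low stress. In the low-spike set the groups did not overlap, with the lowest high stress animal at 8.65 and the highest low stress animal at 8.63. That held there for 1 of the 10 members and for 4.53% of all tested probe sets. In the high-spike set INHBA overlapped, and 0 of 10 members were free of overlap, beside 1.71% of all tested probe sets. The log2 fold change was -0.08 (95% CI -0.35 to 0.20) in the high-spike set and 0.32 (0.02 to 0.62) in the low-spike set. Within the low-spike set limma gave an unadjusted p of 0.0371 and an adjusted p of 0.660. At an unadjusted p under 0.05 the count within that set was 2 of 10 members, INHBA and FST, beside 7.38% of all probe sets, and 0 passed after adjustment, beside 0%. In the high-spike set it was 0 of 10, beside 2.83%. The difference between these stress effects, high-spike minus low-spike, was -0.40 on the log2 scale (95% CI -0.74 to -0.06), with an unadjusted p of 0.0256 and an adjusted p of 0.9996 in limma. INHBA was the 1 member of 10 with an unadjusted p under 0.05 for this difference, beside 2.92% of all probe sets, and 0 of 10 passed after adjustment, beside 0%.

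INHBB, the beta B subunit, was dim in both of its probe sets and was tested only in a fit with no filter. Probe set Ssc.16230.1.A1_at had a log2 signal of 4.44, 5.16 and 6.32 in high stress glands, against 4.65, 5.27 and 6.09 in low stress glands, and 1 of the 16 animals reached the filter value. Probe set Ssc.16230.1.S1_at had 1.01, 2.32 and 4.62 in high stress and 0.55, 2.81 and 4.89 in low stress. The groups overlapped over nearly their whole range in both, with log2 fold changes of -0.05 and -0.47 (adjusted p = 0.999 for each).

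FST encodes follistatin, a secreted protein that binds activin and keeps it from its receptors. Among the tested members it had the lowest log2 fold change, -0.33 (95% CI -0.72 to 0.07; limma, unadjusted p = 0.100, adjusted p = 0.999). Its brighter probe set Ssc.4747.1.S1_at had a log2 signal of 5.64, 6.26 and 7.03 in high stress glands, against 6.22, 6.67 and 7.13 in low stress glands. In high stress 6 of 8 animals lay below the low stress mean, but only 2 below every low stress animal. High stress glands had a mean of 6.34 ± 0.42 and low stress glands one of 6.67 ± 0.37 (SD, n = 8 each), close to the filter value, with 14 of the 16 animals at or above it.

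In the high-spike set the high stress animals had FST log2 signals of 6.24, 6.27, 7.03 and 5.64, against 6.31, 6.39, 6.93 and 6.22 in low stress animals. In the low-spike set they were 6.10, 6.68, 6.23 and 6.56 in high stress, against 6.93, 7.13, 7.05 and 6.41 in low stress. The groups overlapped in both sets. The log2 fold change was -0.17 (95% CI -0.79 to 0.45) in the high-spike set and -0.48 (-0.93 to -0.04) in the low-spike set, where limma gave an unadjusted p of 0.0362 and an adjusted p of 0.653. The difference between these effects was 0.31 (95% CI -0.45 to 1.08).

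The dimmer FST probe set, Ssc.30951.1.A1_at, lay under the filter value in all 16 animals. It had a log2 signal of 1.35, 4.03 and 5.62 in high stress glands, against 3.98, 4.94 and 5.42 in low stress glands, with 4 high stress animals below every low stress animal. Its log2 fold change was -1.25 with no filter (95% CI -2.54 to 0.04; adjusted p = 0.999). It was -0.37 (-0.82 to 0.08) once a constant signal of 23.5 (a pseudocount) was added before the logarithm. Both FST probe sets had values below 0, as did 58.4% of all tested probe sets. Across animals the 2 correlated at only r = 0.11 after the mean of each set was subtracted (n = 16 arrays, given as a description).

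**Figure D1:**
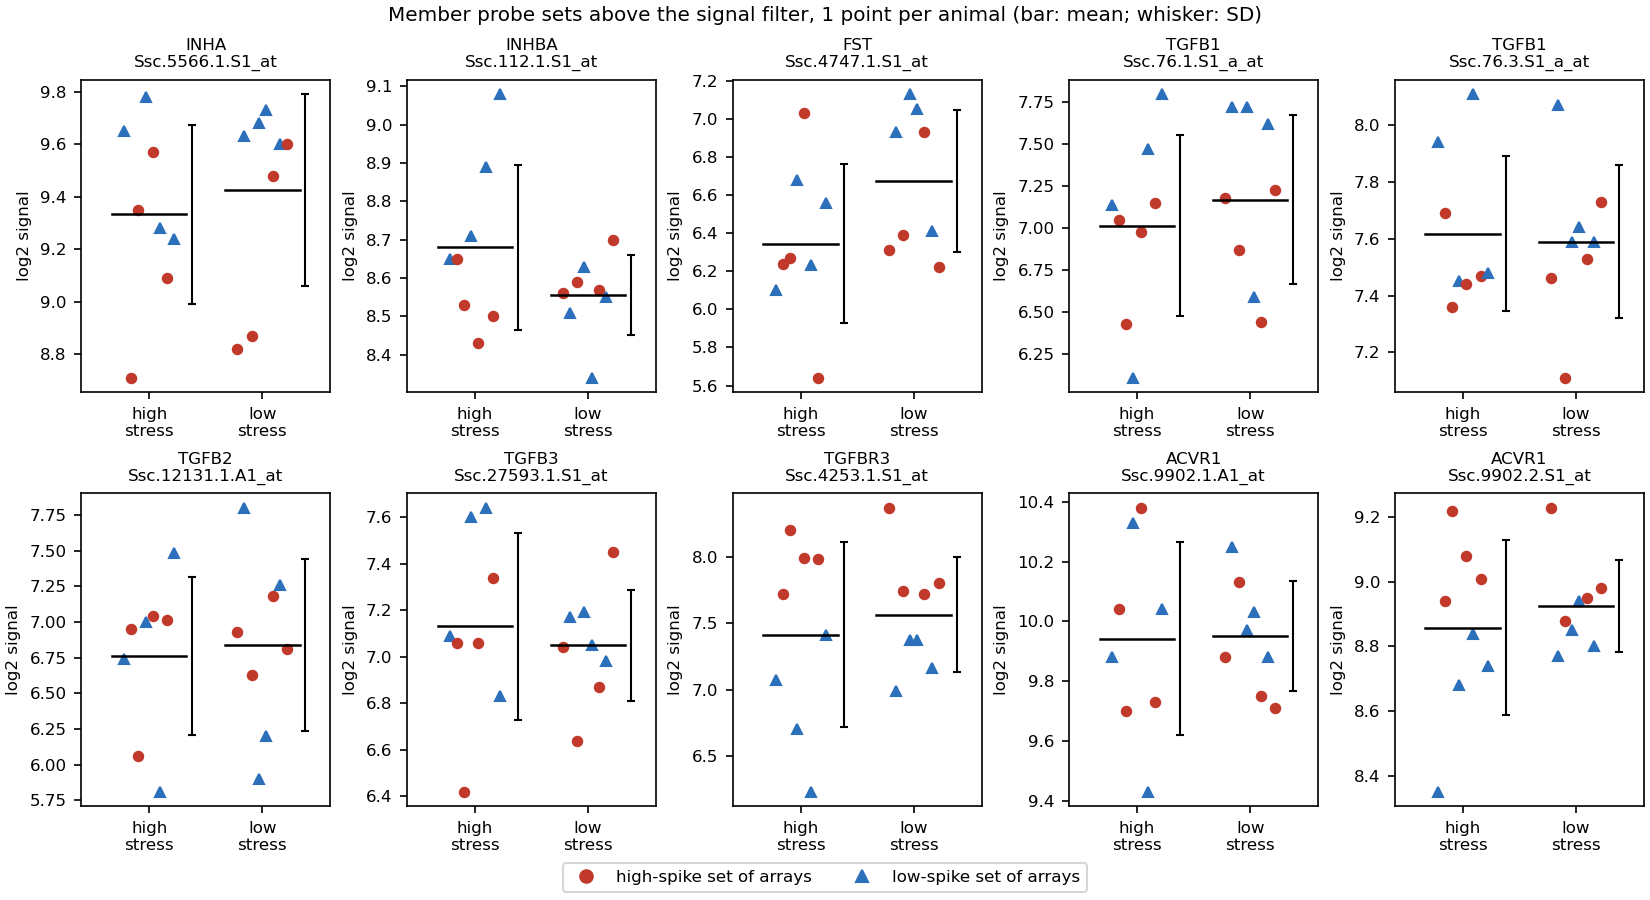
Log2 signal of the 10 member probe sets that passed the filter, with 1 point per animal, high stress on the left and low stress on the right of each panel. Circles are arrays of the high-spike set, triangles those of the low-spike set, bars are group means and whiskers the SD (n = 8 each). The stress groups overlap in all 10 panels, whereas for TGFBR3 all circles lie above all triangles.

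TGFB1, TGFB2 and TGFB3 encode the 3 TGF-beta ligands, which are secreted in a latent form. TGFB1 had 2 tested probe sets. The brighter, Ssc.76.3.S1_a_at, had a log2 signal of 7.36, 7.47 and 8.11 in high stress glands, against 7.11, 7.59 and 8.07 in low stress glands. Its log2 fold change was 0.03 (95% CI -0.26 to 0.32; adjusted p = 0.999). The dimmer, Ssc.76.1.S1_a_at, had 6.11, 7.09 and 7.80 in high stress and 6.44, 7.20 and 7.72 in low stress, and a log2 fold change of -0.15 (95% CI -0.66 to 0.36). The values of the 2 probe sets lay on different sides of 0, and across animals they correlated at r = 0.30 after set means were subtracted (n = 16 arrays, a description).

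TGFB2 was represented by 4 probe sets, of which only Ssc.12131.1.A1_at was tested. It had a log2 signal of 5.81, 6.97 and 7.48 in high stress glands, against 5.90, 6.87 and 7.80 in low stress glands, ranges that nearly coincide. Its log2 fold change was -0.08 (95% CI -0.64 to 0.49; adjusted p = 0.999), and 0.01 after quantile normalization. Among the 3 dim probe sets, Ssc.10287.1.A1_at had a log2 fold change of 0.05, Ssc.92.1.A1_at 0.41 and Ssc.92.1.S1_at -0.16 with no filter, with intervals that all included 0. Correlations between pairs of the 4 probe sets ran from -0.27 to 0.39 across animals after set means were subtracted.

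TGFB3 had a log2 signal of 6.42, 7.07 and 7.64 in high stress glands, against 6.64, 7.04 and 7.45 in low stress glands, in its tested probe set Ssc.27593.1.S1_at. The high stress range enclosed that of low stress. Its log2 fold change was 0.08 (95% CI -0.26 to 0.42; adjusted p = 0.999), at -0.03 in the high-spike set and 0.19 in the low-spike set. The dim TGFB3 probe set, Ssc.6138.1.S1_at, had 3.06, 5.73 and 6.19 in high stress, against 2.45, 5.19 and 5.83 in low stress. In it 7 of 8 high stress animals exceeded the low stress mean and 4 exceeded every low stress animal. Its log2 fold change was 0.68 with no filter (95% CI -0.49 to 1.86; adjusted p = 0.999) and 0.35 (-0.17 to 0.88) with the pseudocount. In this dim probe set the 4 high stress animals of the low-spike set had log2 signals of 6.19, 5.88, 5.85 and 6.17, against 5.73, 5.30, 4.95 and 5.43 in the low stress animals of that set. These do not overlap, which held for 1 of the 9 dim member probe sets and for 2.83% of all probe sets under the filter. In the high-spike set the values were 5.35, 5.61, 3.06 and 5.0 in high stress, against 5.83, 5.07, 2.45 and 2.88 in low stress, and overlapped. There 0 of the 9 dim member probe sets were free of overlap, beside 2.6% of all under the filter.

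TGFBR3 encodes betaglycan, a co-receptor that presents TGF-beta to its receptors and also binds inhibin. Its probe set Ssc.4253.1.S1_at had a log2 signal of 6.23, 7.56 and 8.20 in high stress glands, against 6.99, 7.55 and 8.37 in low stress glands. The medians were nearly equal, and 2 high stress animals lay below every low stress animal. The log2 fold change was -0.15 (95% CI -0.72 to 0.41; adjusted p = 0.999). It was 0.06 in the high-spike set and -0.37 (-0.91 to 0.17) in the low-spike set, a difference of 0.43 (-0.22 to 1.09) that did not pass (limma, adjusted p = 0.9996).

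ACVR1, a type I receptor that serves BMP and activin ligands, had 2 tested probe sets. Probe set Ssc.9902.1.A1_at had a log2 signal of 9.43, 9.96 and 10.38 in high stress glands, against 9.71, 9.93 and 10.25 in low stress glands. Its log2 fold change was -0.01 (95% CI -0.29 to 0.28), a ratio of 0.995 with an interval of 0.818 to 1.21. Probe set Ssc.9902.2.S1_at had 8.35, 8.89 and 9.22 in high stress, against 8.77, 8.91 and 9.23 in low stress, and a log2 fold change of -0.07 (95% CI -0.31 to 0.18). The 2 probe sets correlated at r = -0.11 across animals after set means were subtracted (n = 16 arrays, a description).

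ACVR2A, a type II receptor for activin, was dim in both probe sets, with 0 of 16 animals at the filter value in either. Probe set Ssc.15924.1.A1_at had a log2 signal of 0.27, 1.54 and 4.68 in high stress glands, against 1.29, 4.39 and 5.63 in low stress glands. With no filter its log2 fold change was -1.63 (95% CI -3.36 to 0.10; adjusted p = 0.999). With the pseudocount it was -0.51 (-1.0 to -0.01; limma, unadjusted p = 0.0444), which did not pass after adjustment. That fit had no filter, and the share of all probe sets with an unadjusted p under 0.05 was not counted for it. In the pseudocount fit with the filter, 186 of 14399 probe sets were higher and 274 lower at that threshold. These included 0 of the 10 tested members. Signal this low does not let the size of the change be read. The other probe set, Ssc.15924.1.S1_at, had 1.39, 3.83 and 5.45 in high stress, against 2.22, 3.85 and 6.09 in low stress, and a log2 fold change of -0.24 (95% CI -1.68 to 1.21). Over all animals its medians were nearly equal, unlike those of Ssc.15924.1.A1_at, with which it correlated at r = -0.25 across animals (n = 16 arrays, a description). Its means in high and low stress were 4.75 and 3.61 in the high-spike set, but 2.53 and 4.14 in the low-spike set. Those of Ssc.15924.1.A1_at were 1.03 and 3.93, and 2.91 and 3.28, in the same order. With no filter, 0 of 19 member probe sets passed for a difference of the stress effect between the sets, beside 2 of all 23999.

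**Figure D2:**
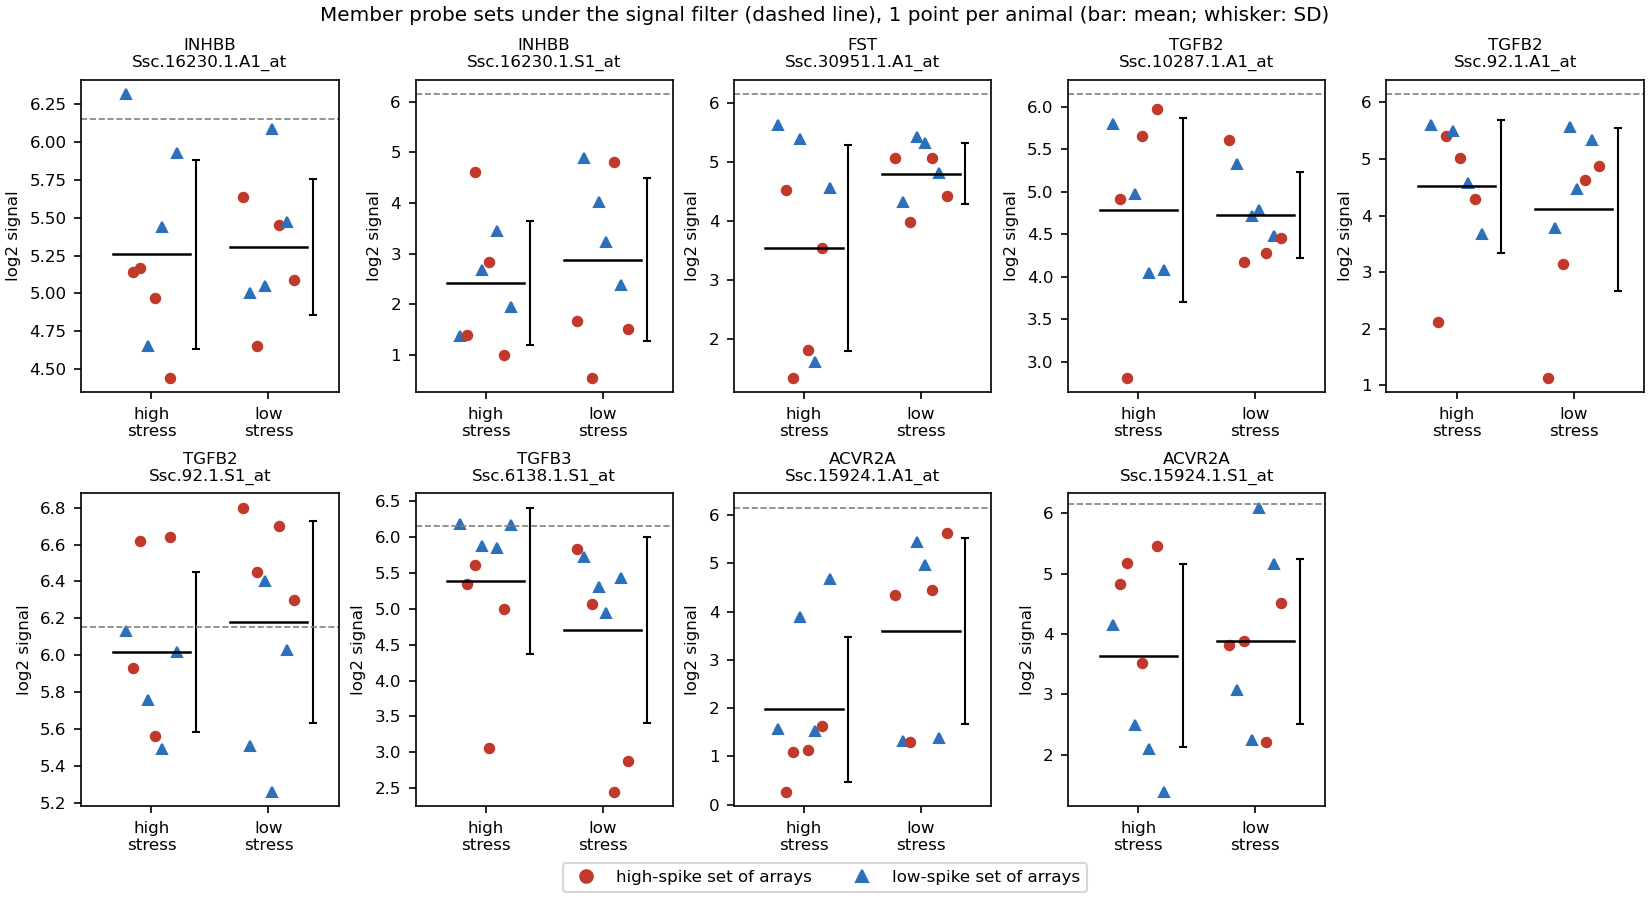
Log2 signal of the 9 member probe sets under the filter, with 1 point per animal, high stress on the left and low stress on the right. Symbols, bars and whiskers are as for the brighter members, and the dashed line is the filter value of log2 6.15. Most animals lie below that line, and in Ssc.15924.1.A1_at of ACVR2A and Ssc.30951.1.A1_at of FST the high stress points reach down to log2 0.27 and 1.35.

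**Figure D3:**
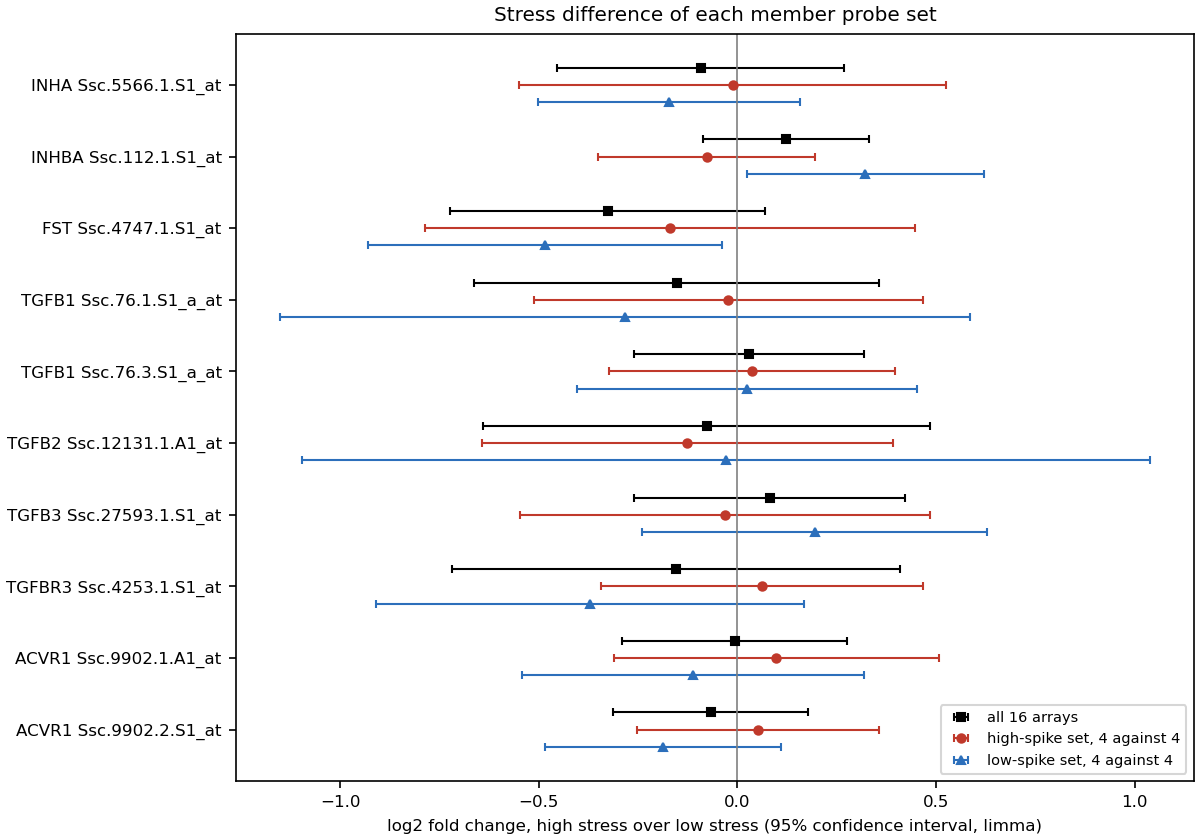
Log2 fold change of high over low stress for the 10 tested member probe sets, with 95% confidence intervals from limma, for all 16 arrays (squares), the high-spike set (circles) and the low-spike set (triangles). All intervals over 16 arrays include 0, and those of INHBA and FST in the low-spike set, 0.02 to 0.62 and -0.93 to -0.04, do not, where 7.38% of all probe sets had an unadjusted p under 0.05.

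More member probe sets passed between the spike-in sets than between the stress groups. Between the sets, 3 of the 10 passed limma at an adjusted p under 0.05, no larger a share than the 40.1% of all probe sets that passed. Of all probe sets 23.7% were higher and 16.3% lower in the high-spike set, and of the members 2 were higher and 1 lower. The 3 were TGFBR3, INHA and probe set Ssc.9902.2.S1_at of ACVR1.

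TGFBR3 had a log2 signal of 7.72, 7.89 and 8.37 in the high-spike set, against 6.23, 7.11 and 7.41 in the low-spike set. All 8 arrays of the high-spike set lay above all 8 of the low-spike set, which held for 6.72% of all probe sets and for 1 of the 10 members. The log2 difference was 0.90 (95% CI 0.57 to 1.24; adjusted p = 0.000416), a ratio of 1.87. INHA had 8.71, 9.22 and 9.60 in the high-spike set, against 9.24, 9.64 and 9.78 in the low-spike set, with 4 arrays of the high-spike set below every array of the other. The log2 difference was -0.39 (95% CI -0.69 to -0.08; adjusted p = 0.0408). The INHA call was lost with no filter (adjusted p = 0.0814) and when any 1 of 10 animals was left out (adjusted p up to 0.0853), namely high stress replicates 1, 2, 4 and 7 and low stress replicates 1, 2, 3, 4, 5 and 7.

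ACVR1 differed between the sets in 1 of its 2 probe sets. Ssc.9902.2.S1_at had a log2 signal of 8.88, 8.99 and 9.23 in the high-spike set, against 8.35, 8.78 and 8.94 in the low-spike set, a log2 difference of 0.29 (95% CI 0.10 to 0.48; adjusted p = 0.0164). Ssc.9902.1.A1_at had a difference of -0.06 (-0.34 to 0.22; adjusted p = 0.741). TGFB1 had values below 0 in both probe sets, -0.26 (adjusted p = 0.0953) for Ssc.76.3.S1_a_at and -0.36 (adjusted p = 0.229) for Ssc.76.1.S1_a_at, and neither passed.

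The scaling of the arrays moved these set differences. Centring each array on its median put the median difference of all probe sets at -0.15, against -0.02 as deposited, and turned the split of calls from 3414 higher and 2353 lower to 2641 higher and 4201 lower. Under it TGFBR3 stood at 0.77 (adjusted p = 0.00107) and INHA at -0.52 (adjusted p = 0.00664). The ACVR1 probe set stood at 0.16 and no longer passed (adjusted p = 0.215), and TGFB1 Ssc.76.3.S1_a_at passed at -0.39 (adjusted p = 0.0142).

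**Figure D4:**
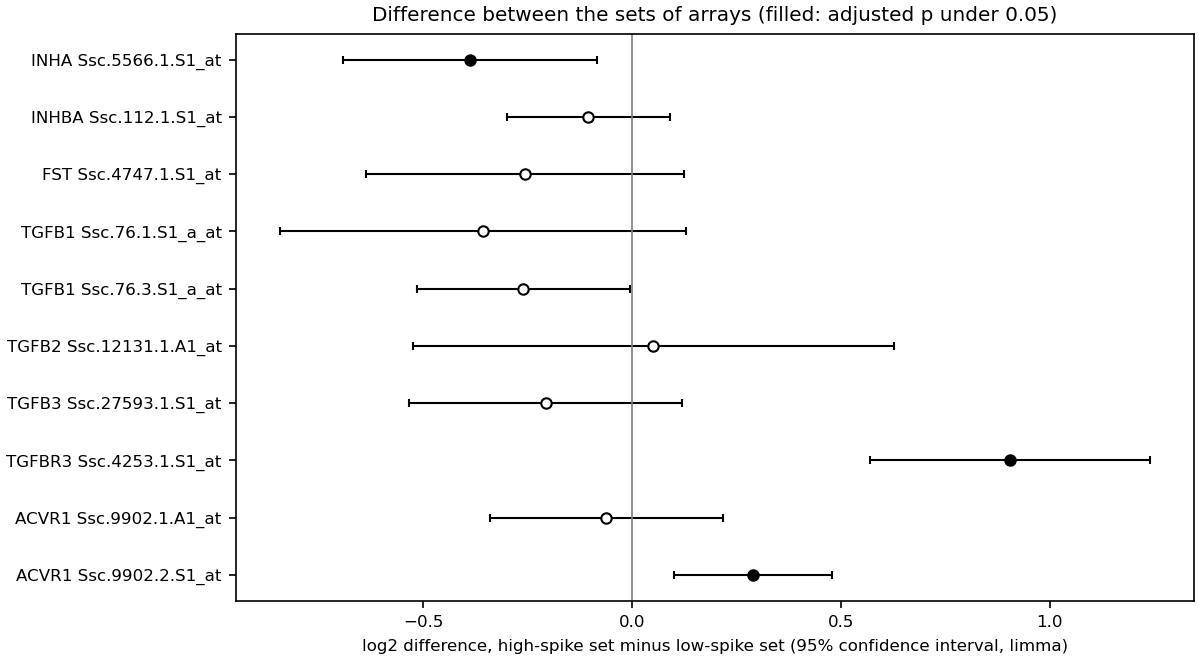
Log2 difference of the 10 tested member probe sets between the spike-in sets, high-spike minus low-spike, with 95% confidence intervals from limma with stress group in the model. Filled points passed at an adjusted p under 0.05. TGFBR3, at 0.90, stands farthest from 0.

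Other measures moved with the sets. The ratio of 3' to 5' signal of the actin control averaged 6.87 in the high-spike set and 14.0 in the low-spike set, and that of GAPDH 1.52 and 1.39 in the same order of sets. Smooth muscle markers averaged 9.45 ± 0.37 on the log2 scale in the high-spike set and 9.98 ± 0.23 in the low-spike set. In the high-spike set 5 of 6 tested markers were lower at an adjusted p under 0.05 (limma), beside 16.3% of all probe sets. The summed signal of that list ran from 4220 to 11857 in the high-spike set and from 8664 to 19873 in the low-spike set. Cortex markers averaged 12.92 ± 0.15 in the high-spike set and 13.08 ± 0.05 in the low-spike set. Of the 8 cortex markers 3 passed, beside 40.1% of all probe sets, with MC2R, the ACTH receptor, higher by 0.69 in the high-spike set and 2 lower. In the other lists 2 of 6 endothelial and 1 of 6 chromaffin cell markers passed as lower there. As higher passed 1 of 5 fibroblast and 1 of 2 blood markers, and 0 of 4 macrophage markers passed. The part of these measures in the set differences of TGFBR3, INHA and ACVR1 was not tested.

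Between the stress groups the marker lists overlapped. The cortex list stood at 13.01 ± 0.11 in high stress animals and 12.99 ± 0.16 in low stress animals, and chromaffin cell markers 12.52 ± 0.35 and 12.37 ± 0.33 in the same order of groups. The smooth muscle list stood at 9.82 ± 0.32 in high stress animals and 9.61 ± 0.47 in low stress animals, endothelial markers 9.18 ± 0.17 and 9.30 ± 0.14, and fibroblast and capsule markers 8.64 ± 0.33 and 8.71 ± 0.35. Over the 7 marker lists, 0 markers passed limma between the stress groups, and 2 of 6 smooth muscle markers and 1 of 6 chromaffin cell markers had an unadjusted p under 0.05, beside 3.19% of all probe sets.

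Whether members varied together from animal to animal was examined for the brightest probe set of each of the 8 tested genes. The mean of each spike-in set was subtracted first. Stress group means were not subtracted, so a stress difference within a set stays in each r. Over 28 pairs, none passed a permutation test within the sets (two-sided, smallest adjusted p = 0.353). TGFB3 and its co-receptor TGFBR3 had Pearson r = -0.55 over 16 animals (permutation p = 0.0270) and Spearman rho = -0.45 (permutation p = 0.0853). The r was -0.16 in the high-spike set and -0.88 in the low-spike set, and -0.53 without the 2 animals farthest from the TGFB3 median. In the low-spike set the means in high and low stress were 7.29 and 7.09 for TGFB3, and 6.85 and 7.22 for TGFBR3.

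INHA and INHBA, the subunits that join in inhibin A, had r = -0.43 (permutation p = 0.0288) and rho = -0.27 (permutation p = 0.263). The r was -0.21 in the high-spike set and -0.81 in the low-spike set, and -0.47 without the 2 animals farthest from the INHA median. In the low-spike set the means in high and low stress were 9.49 and 9.66 for INHA, and 8.83 and 8.51 for INHBA. FST and ACVR1 had r = 0.54 (permutation p = 0.0378) and rho = 0.59 (permutation p = 0.0218), with r = 0.52 in the high-spike set and 0.56 in the low-spike set. Without the 2 animals farthest from the FST median that r was 0.37. Each of these pairs had an adjusted p of 0.353 for r. For the first 2 pairs r lay nearer to 0 in the high-spike set than in the low-spike set, and for FST and ACVR1 it was alike in both, but differences in r between the sets were not tested.

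**Figure D5:**
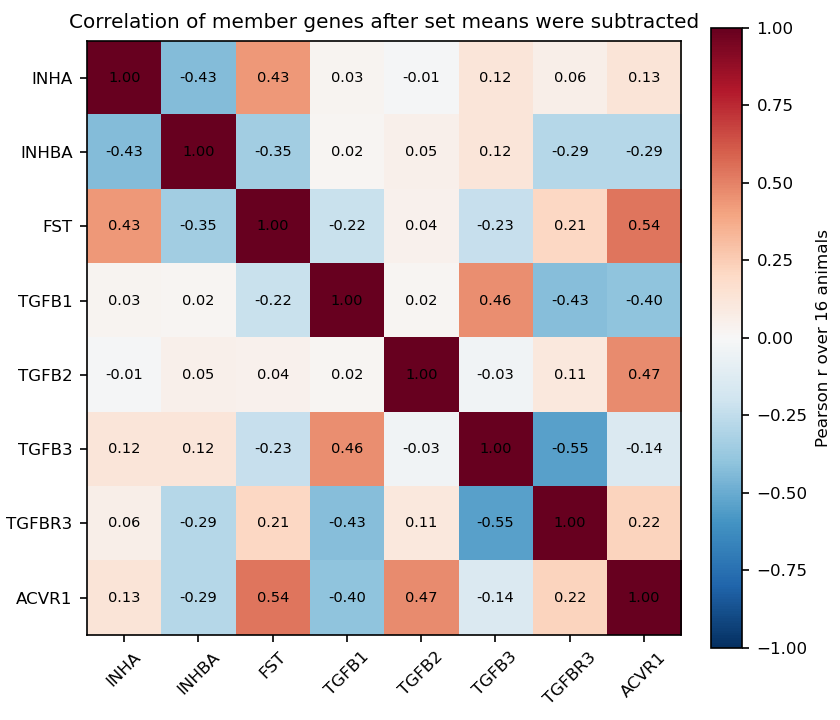
Pearson r between the brightest probe sets of the 8 tested member genes over 16 animals, after the mean of each spike-in set was subtracted. Stress group means were not subtracted. Red squares are above 0 and blue squares below. The values farthest from 0 are -0.55 for TGFB3 with TGFBR3 and 0.54 for FST with ACVR1, and none of the 28 pairs passed after adjustment.

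Set against the marker lists in the same way, 0 of 56 pairs of a member and a list passed after adjustment. ACVR1 and the cortex list came first, with r = -0.55 (permutation p = 0.0214, adjusted p = 0.769) and rho = -0.70 (permutation p = 0.00662, adjusted p = 0.371). INHA and the chromaffin cell list had r = -0.50 (permutation p = 0.0394, adjusted p = 0.769) and rho = -0.53 (permutation p = 0.0330, adjusted p = 0.616). For ACVR1 the r was -0.72 in the high-spike set and -0.39 in the low-spike set, and for INHA -0.68 in the high-spike set and -0.37 in the low-spike set. Without the 2 farthest animals the r was -0.66 for ACVR1 and -0.49 for INHA.

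The genes whose profile over the 16 animals was most like that of a member were picked by r after set means were subtracted, out of 7272 probe sets with 1 symbol that passed the filter. These r values are a description of arrays that share the set and its scaling. Stress group means were left in here too. For INHA they were COL1A2, a collagen chain and one of the fibroblast markers (r = 0.83), MFAP2, a microfibril protein (0.81), and SNX1, a sorting nexin (0.80). With the whole fibroblast and capsule list INHA had r = 0.28 (permutation p = 0.267, adjusted p = 0.812) and rho = 0.19 (permutation p = 0.465, adjusted p = 0.790). For INHBA they were PRKAA1, a catalytic subunit of AMP-activated kinase (0.85), DNAJA3 (0.79) and SLC25A30 (0.78). FST was most like F2R, a thrombin receptor (0.83), LAMP2, a lysosomal membrane protein (0.80), and CAPZB, an actin-capping subunit (0.78).

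TGFB1 was most like LOC404703 (r = 0.83), PPP2R1B, a subunit of protein phosphatase 2A (0.83), and RAMP2, a receptor-modifying protein (0.81). For TGFB2 the profiles nearest were ARL6IP5 (0.84), AKR1CL1 (0.79) and CWC15 (0.78), and for TGFB3 PRKCSH (0.87), TRAPPC4 (0.86) and HIGD2A (0.85). TGFBR3 was most like CCNB1, a cyclin (0.81), ADAMTS1, a secreted protease (0.81), and CH25H, a cholesterol hydroxylase (0.77), and ACVR1 like MSL3 (0.89), PRELID3B (0.85) and LRRC57 (0.84). All 8 genes had neighbours at similar r, between 0.77 and 0.89. Without subtraction of the set means, r for the same pairs ran from 0.24, for FST with LAMP2, to 0.85, for TGFB3 with PRKCSH. For INHA with COL1A2 it was 0.30.

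The rest of the pathway was read from 7 lists with 93 other symbols, of which 46 were found on the array and 37 had a probe set that passed the filter. CTGF and CCN2, the older and newer symbol of 1 gene, are both among those not found. None of the 37 passed limma between high and low stress at an adjusted p under 0.05 (0% of all probe sets did), and none with the set as a block. At an unadjusted p under 0.05 the count was 2, PMEPA1 and TIMP1, beside 3.19% of all probe sets. The log2 fold changes were above 0 for 11 genes and below 0 for 26, where 58.4% of all probe sets were below 0. Their median was -0.08, beside -0.03 over all probe sets. The values of the 37 genes ran from -0.39 to 0.32.

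All 3 other ligands tested had values below 0, although 1 of the 3 lay above 0 in the high-spike set alone. On the log2 fold change scale BMP4, a bone morphogenetic protein, stood at -0.22 (SE 0.12) and GDF9, known as an oocyte growth factor, at -0.14 (SE 0.13). The 6 other receptors tested were also below 0, with a median of -0.17, although 1 of the 6 lay above 0 after median centring. That centring left 39.2% of all probe sets below 0. Among them ENG, an endothelial co-receptor that is also one of the endothelial markers, had -0.22 (SE 0.17) and the BMP receptor BMPR1A -0.24 (SE 0.27). The SMAD carriers SMAD3 at -0.34 (SE 0.16) and SMAD1 at -0.11 (SE 0.08) were 2 of the 3 tested, all below 0. SMAD3 carries the signal of activin and TGF-beta, and SMAD1 that of bone morphogenetic proteins.

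Of 5 inhibitors of the pathway 3 were above 0 and 2 below. PMEPA1, a TGF-beta induced protein that binds SMADs, had a log2 fold change of -0.39 (SE 0.18; limma, unadjusted p = 0.0444, adjusted p = 0.999), and FKBP1A, which holds type I receptors inactive, 0.32 (SE 0.17). Of 5 genes of latency and storage 2 were above 0 and 3 below, with DCN, a TGF-beta binding proteoglycan and also a fibroblast marker, at -0.22 (SE 0.20) and the microfibril gene FBN1 at 0.16 (SE 0.16).

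Target genes of TGF-beta and BMP split into 5 above 0 and 4 below, which became 4 and 5 after quantile normalization and 7 and 2 after median centring. TIMP1, a protease inhibitor, had a log2 fold change of 0.25 (SE 0.12; limma, unadjusted p = 0.0497, adjusted p = 0.999) and ID1, a BMP target, 0.24 (SE 0.19). Regulators of the inhibin alpha gene split into 2 above 0 and 5 below, which became 4 and 3 after quantile normalization and 5 and 2 after median centring. Of these, the nuclear receptor NR0B1 had -0.16 (SE 0.16) and CREM, a cAMP-responsive factor, 0.20 (SE 0.21).

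Between the spike-in sets 12 of the 37 other pathway genes passed, 5 higher and 7 lower in the high-spike set, beside 40.1% of all probe sets. BMPR1A was 0.92 higher on the log2 scale (adjusted p = 0.000473) and ENG differed by -0.46 (adjusted p = 0.0108). PMEPA1 differed by -0.55 (adjusted p = 0.00184), ID1 by -0.45 (adjusted p = 0.0279) and TIMP1 by -0.27 (adjusted p = 0.0321).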

How the data were processed

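The authors deposited 1 intensity per probe set and array, a linear MAS5 signal. Per the submitters' processing notes it was made in Affymetrix Expression Console 1.1.1, and no MAS5 version is given in the sources used here. With 2% of probe sets trimmed at each end, mean intensity was 499.84 to 499.88 on every array, as whole-array scaling would leave it. The table held 1 column per animal and 0 unused columns.

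After log2, 124 controls were set aside. Of the 23999 other probe sets, 10069 had 1 gene symbol in the platform annotation, 198 several and 13732 none. By gene number, 9961 of the first were found in the reference gene table of Sscrofa11.1, and 0 symbols changed. A probe set was tested if its mean log2 signal reached the 40th percentile, 6.15 (a signal of 71.1), as 14399 did. Detection calls were not used here.

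Every tested probe set was fitted with limma 3.58.1 (R 4.3.3; lmFit, eBayes, two-sided) and adjusted by Benjamini-Hochberg. The labels give each array its own animal number, so p-values measure the spread between animals. The labels name no mixing group, so animals that may have been mixed together were treated as independent. The spike-in sets came from the mean signal of 9 dap probe sets, and fits of the set difference held stress group in the model. Correlations were tested with 100000 permutations within the sets, and simulated data served to test the fits. Plots come from matplotlib 3.10.9 under Python 3.11.15.

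The members, the gene lists and the tests were chosen with earlier results of these data known. Named are all members, the 2 genes with the smallest p in each other pathway list, and the 3 profiles most like each member. The marker genes named in the tissue check were chosen after their values were seen. Alternatives were no filter and a 60th percentile filter, quantile normalization, median centring, a pseudocount of 23.5 (20th percentile of all signals), an intensity trend with robust prior, array weights, blocks for the spike-in set and for the digit that opens an animal's number, a Y-linked covariate, each spike-in set alone, and each animal left out.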

Additional observations from a re-analysis of the deposited data

Results flagged for a closer look

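Of 38 groups of 8 animals, 1 for each member probe set and stress group, 2 held an animal that stood apart from its group by Dixon's ratio. Chance picks out about 1 in 20 such groups. In the dim TGFB3 probe set Ssc.6138.1.S1_at, high stress replicate 5 was the lowest of its group at a log2 signal of 3.06, with the next animal at 5.0. That probe set lies under the filter, and the array belongs to the high-spike set. In the ACVR1 probe set Ssc.9902.2.S1_at, low stress replicate 1 was the highest of its group at a log2 signal of 9.23, with the next animal at 8.98, and its array also belongs to the high-spike set. With each animal left out in turn, the log2 difference of that probe set between the spike-in sets, high-spike minus low-spike, ran from 0.23 to 0.32 and passed each time (adjusted p up to 0.0366).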

How the results depend on the processing

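Over 57 results and 1218 alternatives, 1153 values kept their direction and their side of the threshold or, for counts, stayed equal or close. For the stress values, at an adjusted p of 0.999 in limma over all arrays, keeping that side is a weak check. The count of member probe sets called between high and low stress was 0 under every alternative run, and that of all probe sets was 0 except for 1 with the set as a block, before and after quantile normalization. Between the sets 2 to 3 of the 10 members were called when each animal was left out, beside 5069 to 6198 of all 14399 probe sets.

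Of the stress values that changed direction under an alternative, none passed. Most lay close to 0 over all 16 arrays, but DCN was at -0.22, CREM at 0.20, TGFBR3 at -0.15 and INHBA at 0.12 there. In the high-spike set alone INHBA stood at -0.077, TGFB3 at -0.031, TGFBR3 at 0.062, ACVR1 at 0.098 (Ssc.9902.1.A1_at) and 0.052 (Ssc.9902.2.S1_at), and DCN at 0.087. In the low-spike set alone CREM stood at -0.011. After quantile normalization, with or without the block, TGFB2 stood at 0.0083 and ACVR1 Ssc.9902.1.A1_at at 0.0131. Median centring put the ACVR1 probe sets at 0.0661 and 0.0053, and array weights put Ssc.9902.1.A1_at at 0.0051 and TGFB1 Ssc.76.3.S1_a_at at -0.0013.

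With each animal left out in turn, the ranges that crossed 0 were -0.0398 to 0.0985 for TGFB1 Ssc.76.3.S1_a_at, -0.212 to 0.0605 for TGFB2, -0.267 to 0.0141 for TGFBR3, and -0.0697 to 0.0660 and -0.120 to 0.0049 for the ACVR1 probe sets. Between sets, TGFB2 stood at -0.056 after quantile normalization, at -0.0811 after median centring and between -0.0906 and 0.204 with animals left out. For the difference in stress effect, TGFB1 Ssc.76.3.S1_a_at stood at -0.0207 and -0.0126 under these scalings and between -0.103 and 0.133 with animals left out, Ssc.76.1.S1_a_at between -0.0788 and 0.534, and TGFB2 between -0.436 and 0.200. TGFB1 Ssc.76.1.S1_a_at passed between the sets without high stress replicate 4 (-0.52, adjusted p = 0.0399). The causes were not tested.

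No animal number is shared between the stress groups, so animals could not be paired 1 to 1. The digit that opens the number is shared, and with it as a block, alone or with the spike-in set, 0 members and 0 of all probe sets were called. The labels do not say what it marks. Probe sets near the filter or under it carry signal too low for their size of change to be read.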
